A study of Arabidopsis thaliana with 8 samples.

Results

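The regions described here are 68 stretches downstream of Arabidopsis genes whose read counts were low in both libraries of the FIP37-deficient line fip37L and in none of the other 3 lines to the same degree. Each is a 500-bp window that starts at the annotated 3′ end of a transcript, 1 window per locus, and the 68 come from 31109 loci. A window was kept if it held at least 10 reads in each of the 6 libraries of cpsf30-3, cpsf30-1 and WT, which 9431 windows did, and if its level in both fip37L libraries was at most 0.5 times the lowest level of those 6. Levels are CPM, the count divided by the column total over all transcript models and multiplied by 1000000. The 68 make up 0.721% of the 9431 windows and are called fip37L-low windows below. The windows were therefore chosen by their fip37L values, so the size of the fip37L change is given as a description and supports nothing by itself.

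Polyadenylated RNA was sequenced from whole 9-day-old seedlings of ecotype Col-0, in 4 lines with 2 libraries each, 8 libraries in all. The fip37L plants carry the fip37-4 mutation and express FIP37 from the LEC1 promoter, which drives expression in the embryo, so that FIP37 is missing after germination. The cpsf30-3 plants have a T-DNA insertion that removes the long isoform of CPSF30, and cpsf30-1 plants lack both isoforms. WT seedlings are the reference. By the study's methods fip37-4 derivatives grew on a richer medium with added sucrose and were picked under a microscope. Whether the WT and cpsf30 seedlings shared that medium is not stated. If they did not, medium and genotype cannot be told apart in any comparison with fip37L. Nothing in the labels says that the 2 libraries of a line came from separate cultures, so the p-values measure the spread between these libraries, which may be technical.

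FIP37 belongs to the nuclear methyltransferase complex, which writes N6-methyladenosine on mRNA. CPSF30 is a subunit of the cleavage and polyadenylation specificity factor, which recognises the signal in front of the site where a transcript is cut and tailed; its long isoform carries a domain that binds the methyl mark. Reads in a window can come from a transcript that runs past its annotated end, from a longer 3′ end of the same gene, or from any other gene that lies in the window. Low values in a window thus stand for less RNA of any of these kinds, and in whole seedlings fewer cells of a type and less RNA per cell cannot be told apart.

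Column totals ran from 5862499 to 8411827 counts. The spread between replicates, as edgeR's biological coefficient of variation fitted for each line, was 21.6% in fip37L, 12.4% in cpsf30-3, 8.71% in cpsf30-1 and 6.39% in WT. A window starts after the end of its transcript model and does not count that model. The window of FIP37 held 149 and 105 counts in fip37L, 41 and 36 for cpsf30-3, 39 and 44 for cpsf30-1, and 56 and 37 for WT. The window of the second CPSF30 model held 16 and 17 counts in fip37L, 4 and 2 for cpsf30-3, 0 and 0 for cpsf30-1, and 19 and 14 for WT. By the study the short CPSF30 isoform ends inside an intron. A window behind a short model can thus hold reads of the long isoform, which both cpsf30 lines lose. The same rule applied to each other line in turn gave 2 windows low only in cpsf30-3, 29 low only in cpsf30-1 and 53 low only in WT. The libraries were stranded, and read density in such windows is described as strand-specific for another mutant of the study, whereas for the 4 lines used here no strand setting is stated. Of 15 pairs of windows on opposite strands that overlap by at least 490 bases and hold at least 100 reads, 9 had counts within a ratio of 0.9, with a median ratio of 0.9497, and 4 had a ratio below 0.5.

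Sequence just before the annotated end is shown for 6 of the windows to give the start of the measured stretch. They are the window with the most reads in WT (AT3G05725), 3 with another member close by (AT4G22530, AT4G22513, AT2G30766) and 2 marker genes (EXPA7, SPCH). The canonical polyadenylation signal AATAAA was searched on the strand of the gene in the last 50 bases, and is in capitals where found.
AT3G05725: tgttttttgtaattAATAAAcactacaatt
AT4G22530: gaaagtttacaaaAATAAAaaataatgcca
EXPA7: AATAAAtcgcttgcttttgtttagaagaca
AT4G22513: ctgaactaaatgcccaccacacaaaagaac
AT2G30766: taaccgtgataaaaataattttgaaattat
SPCH: atattcttcttgcaacacaaaatgttaagg
These are RefSeq bases of TAIR10.1, 30 per locus, and each ends at the annotated 3′ end except that of EXPA7, which ends 2 bases before it. In AT3G05725 the signal ends 10 bases before the annotated end, in AT4G22530 11 bases and in EXPA7 26 bases. The signal was present at 11 of the 67 fip37L-low windows that could be placed on the reference, 16.4%, against 9.91% of 9354 windows that passed the count minimum and 8.66% of all 30622 placed nuclear windows. The shorter motif TGTA stood in the last 150 bases of 49 of the 67, 73.1%, against 71.0% of the windows that passed the minimum. A and T made up 68.4% of the last 50 bases on average, and 68.1% in the windows that passed the minimum. Among 67 fip37L-low windows with a coding model in the reference, 7, or 10.4%, began directly at the stop codon, which is 9.39% among the 9236 such windows that passed the minimum; CYP71A13, AT4G22485 and AT1G76780 are among the 7.

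The fip37L-low windows had a median level of 2.56 CPM in fip37L (0.0594 to 48.5), 9.27 CPM in cpsf30-3, 10.1 CPM in cpsf30-1 and 10.4 CPM in WT (1.73 to 210). In the 9431 windows that passed the minimum the median was 13.8 CPM in fip37L and 14.3 CPM in WT. The ratio of mean fip37L to mean WT level ran from 0.0177 to 0.473 with a median of 0.258, and 11 windows were more than 10-fold lower in fip37L, 33 more than 4-fold and 14 less than 3-fold. Counts were low in many: 32 windows had fewer than 10 counts in at least 1 fip37L library and 22 in both, and 5 had 3 counts or fewer in both. Summed over all 68, the windows held 433 and 399 CPM in fip37L, 1367 and 1316 for cpsf30-3, 1357 and 1414 for cpsf30-1, and 1671 and 1729 for WT.

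**Figure D1:**
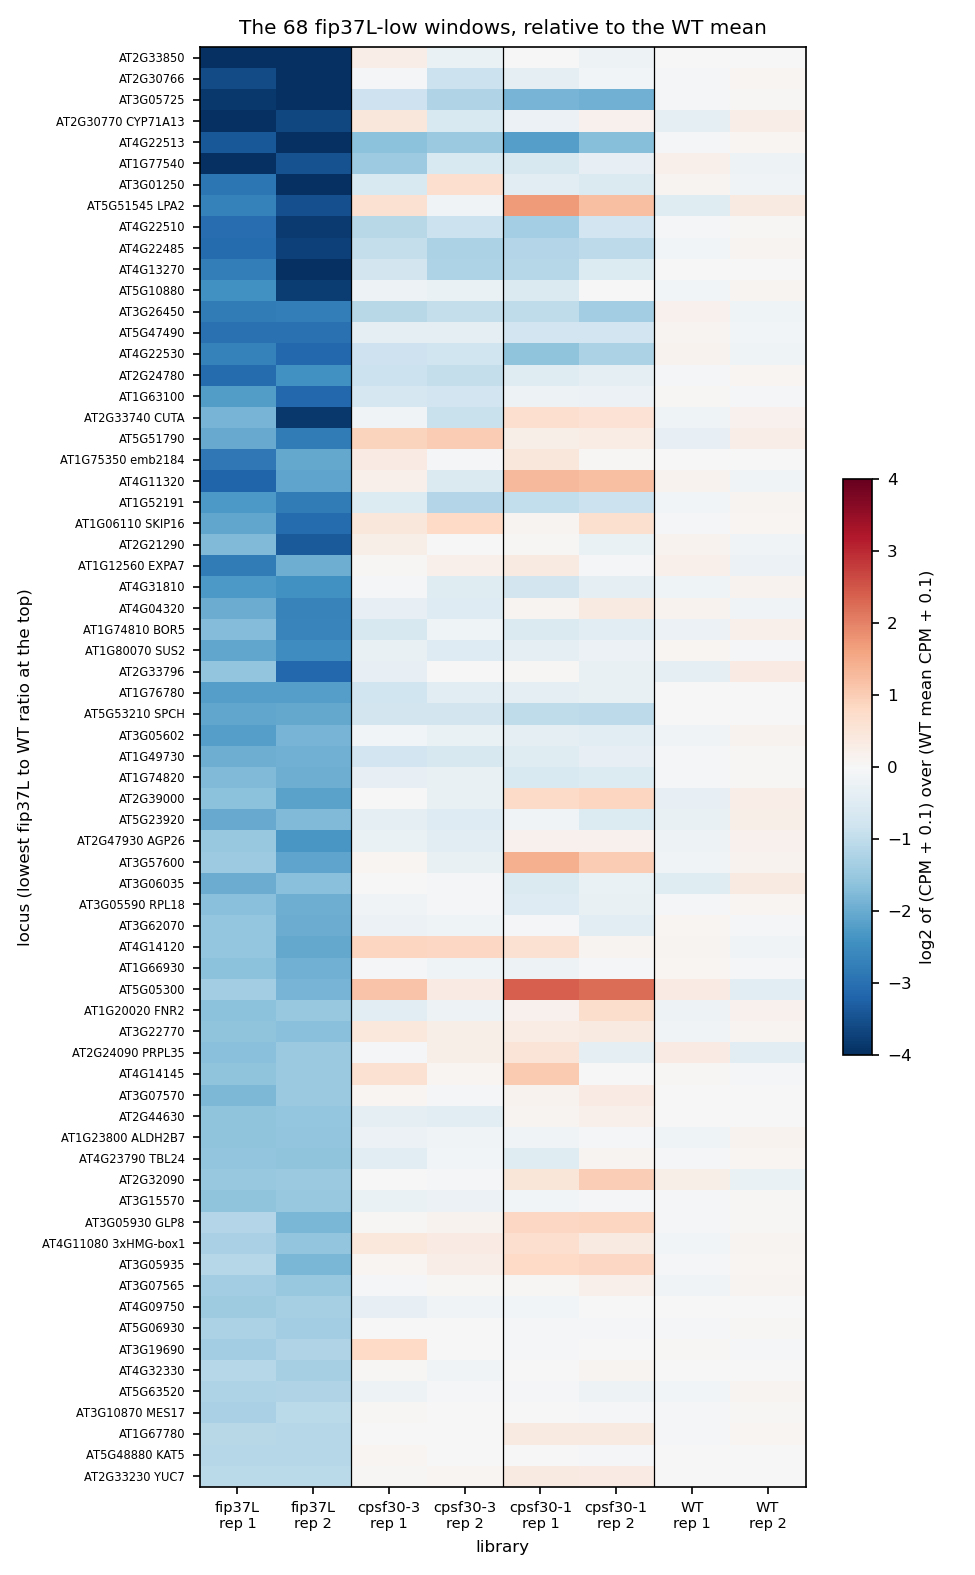
Each row is one of the 68 fip37L-low windows, ordered by its ratio of mean fip37L to mean WT level with the lowest at the top, and each column is a library. Colour gives log2 of the CPM plus 0.1 over the WT mean CPM plus 0.1 and ends at 4 in either direction. Both fip37L columns are blue throughout, since the rule asked for this, while the cpsf30 columns hold both blue and red rows.

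All 68 windows passed edgeR's filter on low counts and were tested with 12583 windows in all. Calls needed both an adjusted p below 0.05 and at least a 2-fold difference. Against WT, 64 of the 68 were called lower in fip37L, where 2.85% of all windows tested were; against cpsf30-3 67 were, where 2.59% of all were; and against cpsf30-1 65 were, where 10.2% of all were. Of the 68, 0 were called higher by edgeR or DESeq2 in these comparisons, and 0 had an unadjusted p under 0.05 in that direction; of all windows tested, 7.1% were called higher against WT, 4.14% against cpsf30-3 and 7.7% against cpsf30-1. These counts restate the rule. The 4 not called against WT were AT5G05300, PRPL35, AT4G14145 and YUC7. Scaling matters slightly for these comparisons: with column totals in place of TMM, edgeR's default scaling, the median change of all windows moved by -0.12 on the log2 scale in fip37L against WT and by -0.13 against cpsf30-1. At the edge of the rule, the 5 windows just inside were AT4G09750, MES17, AT4G32330, AT5G63520 and SPCH, with a highest fip37L level of 0.489 to 0.497 times the lowest other level. The 5 just outside were AT4G17410, CYP705A21, MSRB2, AT1G67785 and WRKY53, at 0.509 to 0.511 times.

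The window with the lowest ratio lies behind AT2G33850 (chromosome 2, 14320365 to 14320864, minus strand), which encodes an E6-like protein. It held 1 and 0 counts in fip37L, against 30 and 17 for cpsf30-3, 20 and 20 for cpsf30-1, and 24 and 23 for WT. On pooled counts it was 48.7-fold lower in fip37L than in WT, with an exact 95% interval of 8.33 to 1964 that covers counting error only. Its window overlaps AT2G33847 on the same strand, and the window behind that gene held 276 and 248 counts in fip37L, against 305 and 287 in WT, a change of -0.11 ± 0.12 (SE, log2) that edgeR did not call (adjusted p = 0.58).

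The window with the most reads in WT lies behind AT3G05725 (chromosome 3, 1693379 to 1693878, plus strand), a gene of unknown function. It held 14.3 and 7.57 CPM in fip37L, 117 and 90.6 CPM for cpsf30-3, 58.2 and 55.1 CPM for cpsf30-1, and 202 and 217 CPM for WT. The 4 lines did not overlap, and the level in WT was 19.2 times that in fip37L. The window also takes in 255 exon bases of AT3G05727, the next gene on the same strand. The own window of AT3G05727 shares no base with it and held 3 and 0 counts in fip37L, 17 and 15 for cpsf30-3, 11 and 7 for cpsf30-1, and 45 and 29 for WT. Its change in fip37L against WT was -4.46 ± 0.62 (SE, log2; edgeR adjusted p = 0.0017).

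CYP71A13, a cytochrome P450 of the pathway to the defence compound camalexin, and AT2G30766, an uncharacterized gene, face each other on chromosome 2, and the windows of both were fip37L-low. The window behind AT2G30766 (13110481 to 13110980) lies wholly inside CYP71A13 and covers 355 of its exon bases; it held 7 and 1 counts in fip37L, against 78 and 37 for cpsf30-3, 51 and 71 for cpsf30-1, and 77 and 78 for WT. The window behind CYP71A13 (13109409 to 13109908) lies inside AT2G30766, mostly in intron sequence, and held 2 and 2 counts in fip37L, against 53 and 21 for cpsf30-3, 26 and 41 for cpsf30-1, and 30 and 43 for WT. Both pairs of fip37L values lay far below every other library, and no difference among cpsf30-3, cpsf30-1 and WT was called for either window. On pooled counts the fold reduction against WT was 20.1 for AT2G30766, with an exact 95% interval of 9.94 to 47.3. For CYP71A13 it was 18.9, with an interval of 7.08 to 71.3. Both intervals cover counting error only, and both windows were chosen for their low fip37L counts.

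**Figure D2:**
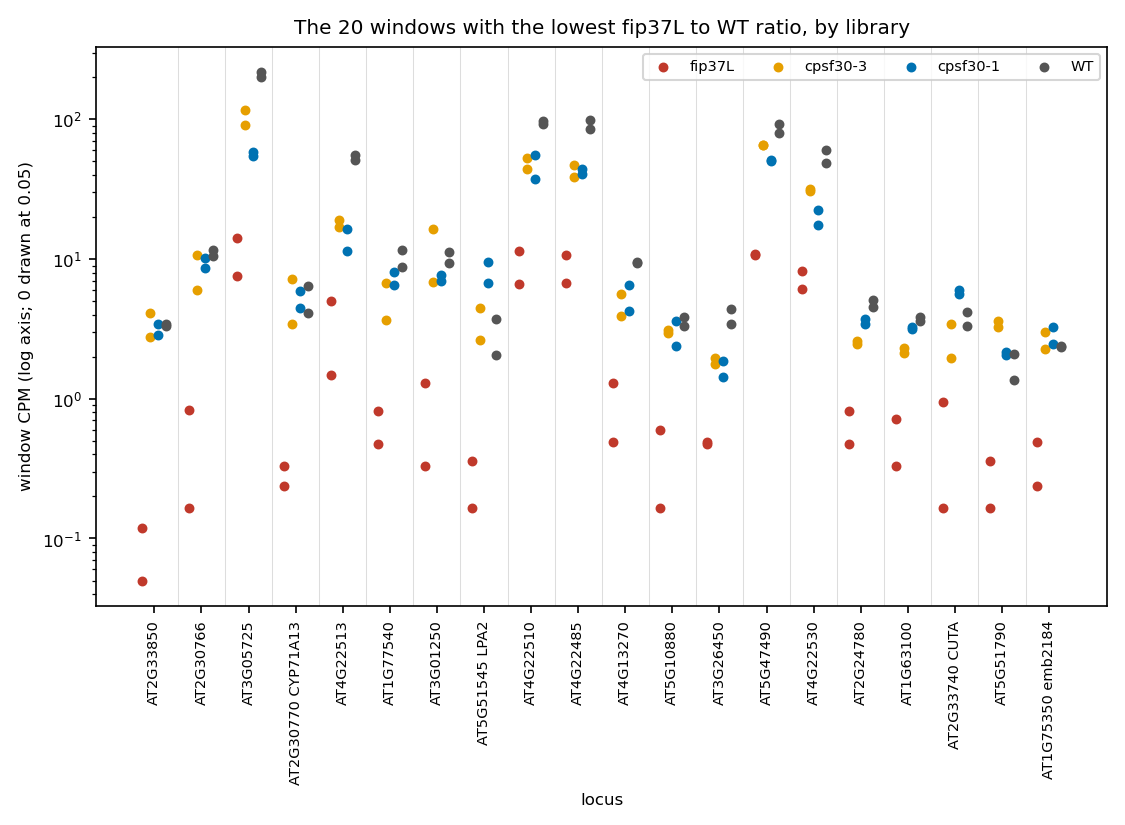
The plot shows the CPM in each library, on a log axis, of the 20 fip37L-low windows with the lowest fip37L to WT ratio, with a count of 0 drawn at 0.05. WT levels among these 20 run from 1.37 CPM to 217 CPM, and in every window both fip37L points lie below all other points, as the rule required.

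A stretch of chromosome 4 held 4 fip37L-low windows among 11 neighbouring loci. AT4G22485 and AT4G22513 encode proteins of the superfamily of lipid transfer proteins, protease inhibitors and seed storage albumins, small secreted proteins with several tandem copies here. AT4G22510 is uncharacterized and its gene spans AT4G22513 on the other strand, and AT4G22530 encodes a predicted methyltransferase. Because the copies resemble each other, reads may have been shared between them in mapping, and their values are uncertain to that extent.

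The window behind AT4G22513 (11855440 to 11855939) held 4.99 and 1.48 CPM in fip37L, 17.03 and 19.1 for cpsf30-3, 11.4 and 16.4 for cpsf30-1, and 51.0 and 56.1 for WT. That behind AT4G22485 (11844006 to 11844505) held 10.7 and 6.75 CPM in fip37L, 47.5 and 38.4 for cpsf30-3, 40.4 and 44.1 for cpsf30-1, and 84.8 and 98.9 for WT. For AT4G22510 (11854309 to 11854808) the values were 11.4 and 6.58 CPM in fip37L, 44.1 and 52.6 for cpsf30-3, 37.4 and 55.5 for cpsf30-1, and 92.8 and 97.4 for WT. In all 3 windows both cpsf30 lines lay between fip37L and WT without touching either. AT4G22530 (11857944 to 11858443) had 8.20 and 6.09 CPM in fip37L, 30.8 and 31.5 for cpsf30-3, 17.6 and 22.5 for cpsf30-1, and 60.05 and 48.6 for WT, with the cpsf30 lines again in between.

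Other windows of the same stretch were too weak for the count minimum or did not share the pattern. AT4G22490, another lipid transfer family gene, held 4 and 2 counts in fip37L, against 25 and 20 in WT, a change of -2.81 ± 0.43 (SE, log2; edgeR adjusted p = 0.0027), and AT4G22517 held 3 and 2 counts in fip37L, against 22 and 16 in WT (-2.81 ± 0.47, SE; edgeR adjusted p = 0.0039). AT4G22505 held 3 and 1 counts in fip37L, against 14 and 17 in WT, and was also lower (-2.83 ± 0.57, SE; edgeR adjusted p = 0.0087). By contrast AT4G22460, of the same family, held 11 and 8 counts in fip37L, against 5 and 11 in WT (0.29 ± 0.52, SE; edgeR adjusted p = 0.73). AT4G22520, a further family member, had 252 and 187 counts in fip37L and 180 and 173 in WT (0.37 ± 0.12, SE; edgeR adjusted p = 0.057), and the window behind ORP2A at the end of the stretch was higher in fip37L, with 89 and 76 counts, against 27 and 37 in WT (1.42 ± 0.23, SE; edgeR adjusted p = 0.0036).

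**Figure D3:**
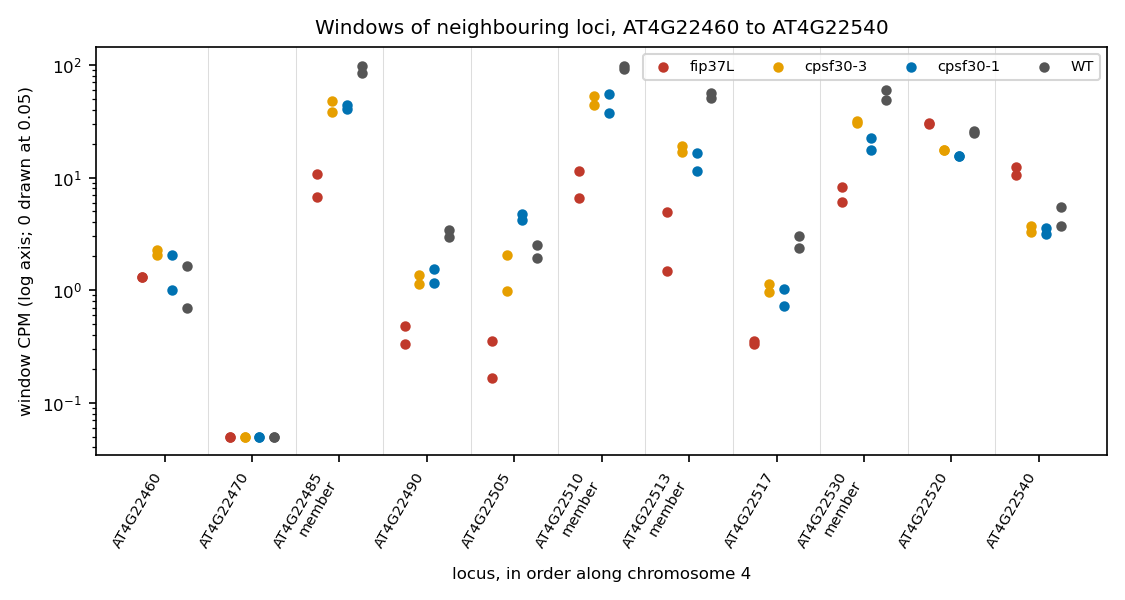
Levels are shown in CPM on a log axis for the windows behind 11 neighbouring loci of chromosome 4 in their order along the chromosome, 2 points per line and a count of 0 drawn at 0.05. The 4 loci marked as members show the order fip37L, then both cpsf30 lines, then WT, whereas AT4G22460, AT4G22520 and AT4G22540, which is ORP2A, do not have low fip37L points.

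Neighbouring members were also found elsewhere. The windows of GLP8, a germin-like protein, and of the uncharacterized AT3G05935 share 323 bases on opposite strands. GLP8 held 44 and 20 counts in fip37L, 90 and 81 for cpsf30-3, 125 and 151 for cpsf30-1, and 83 and 83 for WT, and AT3G05935 held 45 and 20 counts in fip37L, 91 and 87 for cpsf30-3, 121 and 145 for cpsf30-1, and 82 and 83 for WT. The counts of both are nearly equal in every library, so they are not taken as 2 independent windows. BOR5, a borate transporter, and the cupin gene AT1G74820 face each other with 12 bases between their windows, and each window lies over the other gene. BOR5 held 6 and 2 counts in fip37L, 12 and 14 for cpsf30-3, 10 and 13 for cpsf30-1, and 16 and 20 for WT. AT3G07565, annotated as a histone H2A deubiquitinase, and AT3G07570, a cytochrome b561 protein, are 2 loci apart, with 764 bases between their windows. By chromosome the 67 placed windows fell as 15, 13, 15, 14 and 10 on chromosomes 1 to 5.

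The rule did not set any direction among cpsf30-3, cpsf30-1 and WT, apart from asking that none of the 6 libraries be near fip37L, so these lines could be compared within the set. In cpsf30-3 against WT 2 of the 68 windows were called lower, where 0.159% of all windows tested were, and 0 were called higher, where 1.33% were. Those 2 were AT4G22513 (-1.51 ± 0.29, SE, log2; edgeR adjusted p = 0.036) and AT4G22485 (-1.04 ± 0.17, SE; edgeR adjusted p = 0.025). Both calls were lost when any 1 of the 4 libraries was left out, and that of AT4G22513 also with the replicate number as a block. Both windows lie in the chromosome 4 stretch described above and may not be independent of each other. By the adjusted p of edgeR alone, with no fold threshold, 4 of the 68 were lower. In the higher direction 6 windows had an unadjusted p under 0.05 in edgeR, and DESeq2 called 0. The shares of all windows tested that met these other criteria were not counted.

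In cpsf30-1 against WT 7 of the 68 were called lower, where 2.57% of all windows tested were, and 4 were called higher, where 11.0% were. The median change of the 68 was -0.08 (log2), and that of all windows tested -0.03. The 7 lower ones were AT4G22513 (-1.93 ± 0.30, SE, log2; edgeR adjusted p = 0.0022), AT3G05725 (-1.88 ± 0.21; edgeR adjusted p = 0.00039), AT4G22530 (-1.43 ± 0.18; edgeR adjusted p = 0.00073), AT3G26450, AT4G22485, SPCH and AT4G22510. The calls of AT4G22513, AT3G05725, AT4G22530 and AT4G22485 held with any 1 of the 4 libraries left out. Those of AT3G26450 and SPCH were lost without any 1 of them and also by DESeq2, with an adjusted p of 0.44 for AT3G26450 and 0.33 for SPCH, so that DESeq2 called 5 of the 68 lower; SPCH, at a mean of at least 20 counts, also came out below a 2-fold difference. The call of AT4G22510 was lost without either WT library or without cpsf30-1 replicate 1, and at a mean of at least 20 counts or in a fit of only the 2 lines its change was below 2-fold. The share of all windows tested that DESeq2 called lower was not counted. That fip37L was the lowest line in these windows restates the rule. By the main edgeR fit fip37L was not the only line below WT in them. For AT3G26450, SPCH and AT4G22510 this rests on calls that were not stable. Of the 7, AT4G22513, AT4G22530, AT4G22485 and AT4G22510 lie in the chromosome 4 stretch described above and may not be independent of each other.

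The 4 called higher in cpsf30-1 were AT5G05300, LPA2, AT4G11320 and AT3G57600. AT5G05300, uncharacterized, held 0.713 and 0.494 CPM in fip37L, 4.63 and 2.62 for cpsf30-3, 11.3 and 9.95 for cpsf30-1, and 2.61 and 1.49 for WT. It rose in cpsf30-1 by 2.35 ± 0.33 against WT (SE, log2; edgeR adjusted p = 0.0014), and its call held with any 1 of the 4 libraries left out. LPA2, which acts in photosystem II assembly, held 0.357 and 0.165 CPM in fip37L, 4.50 and 2.62 for cpsf30-3, 9.55 and 6.78 for cpsf30-1, and 2.06 and 3.73 for WT; it rose in cpsf30-1 by 1.499 ± 0.36 (SE, log2; edgeR adjusted p = 0.016), a call that was lost without WT replicate 1, without cpsf30-1 replicate 1 and by DESeq2 (adjusted p = 0.12). AT4G11320, a papain-type cysteine protease, had 18.4 and 17.2 CPM in cpsf30-1 and 8.11 and 6.71 CPM in WT (1.26 ± 0.29, SE, log2; edgeR adjusted p = 0.014), lost without any 1 of the 4 libraries. AT3G57600, a transcription factor of the AP2/ERF family, had 6.65 and 5.04 CPM in cpsf30-1 and 2.20 and 2.68 CPM in WT (1.26 ± 0.30, SE, log2; edgeR adjusted p = 0.016), lost without either WT library, without cpsf30-1 replicate 1 and by DESeq2 (adjusted p = 0.30).

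**Figure D4:**
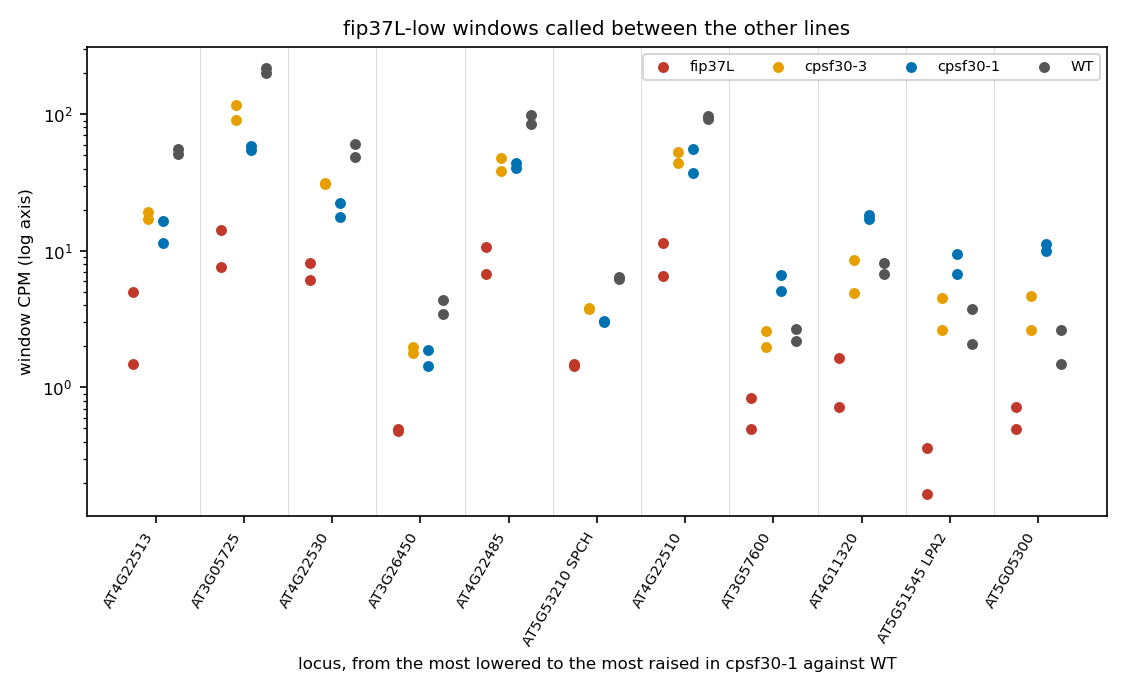
The 11 fip37L-low windows that were called in a comparison among cpsf30-3, cpsf30-1 and WT are shown with the CPM of each library on a log axis. The 7 on the left were lower in cpsf30-1 than in WT, and the 4 on the right were higher in cpsf30-1 than in WT.

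In cpsf30-1 against cpsf30-3, 3 of the 68 windows were called higher, where 6.19% of all windows tested were, and 0 were called lower, where 1.45% were. In the lower direction 3 passed the adjusted p of edgeR alone, 5 had an unadjusted p under 0.05, and DESeq2 called 0. These other criteria were not counted over all windows tested, so the counts have no matching background. The 3 higher ones were AT5G05300 (1.47 ± 0.31, SE, log2; edgeR adjusted p = 0.017), AT4G11320 (1.33 ± 0.29; edgeR adjusted p = 0.020) and AT3G57600 (1.29 ± 0.30; edgeR adjusted p = 0.026), each with both cpsf30-1 libraries above both cpsf30-3 libraries.

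Placed on the reference annotation, 48 of the 68 windows overlapped genes on the opposite strand only, 70.6% against 61.2% of the 9431 windows that passed the minimum. A gene on the same strand lay in 9, 13.2% against 31.1%, and no other gene in 10, 14.7% against 6.85%. Of the 49 fip37L-low windows with at least 20 counts in each of the 6 other libraries, 4, or 8.16%, were free of other genes. The share among all windows at that minimum was not counted, so this value has no matching background. Exon bases of an opposite-strand gene lay in 50 windows, 73.5% against 67.1%. The 10 free windows include those of SPCH, LPA2, AT4G22510, AT4G22530, AT1G63100, emb2184 and AT4G11320. AT3G05602 could not be placed.

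**Figure D5:**
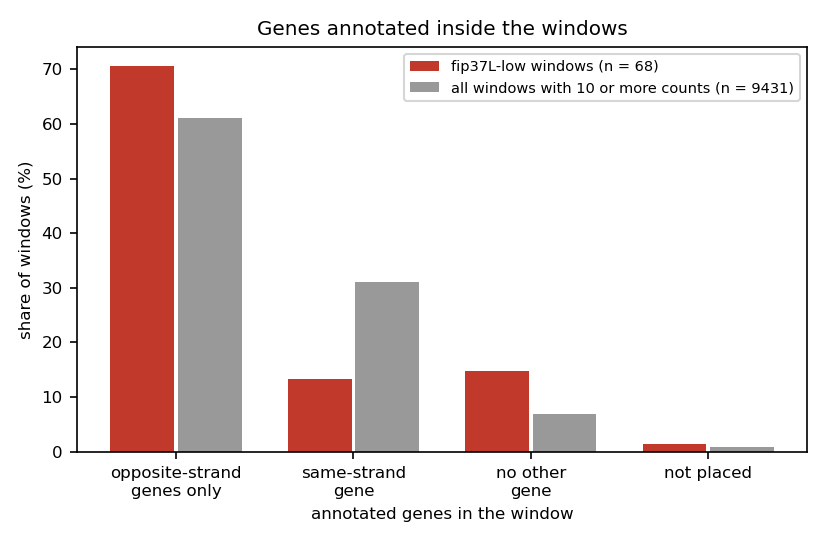
Bars give the share of windows, in percent, that hold opposite-strand genes only, a same-strand gene, no other gene, or that could not be placed, for the 68 fip37L-low windows and for all 9431 windows that passed the count minimum. Opposite-strand genes only is the most common class in both sets, and same-strand genes take a smaller share of the fip37L-low windows.

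Most genes lying in the windows have windows of their own. Leaving out genes whose own window is fip37L-low, 23 of these were tested and share no base with the fip37L-low window. In fip37L against WT 4 of the 23 were called lower, AT3G05727, AT3G15550, AT3G26440 and WRKY41, and 3 were called higher, AT1G12570, 3xHMG-box2 and EXPA2, where 2.85% of all windows tested were lower and 7.1% higher. The window of EXPA2, which encodes an expansin and lies opposite to AT5G05300, held 14 and 10 counts in fip37L, against 1 and 1 in WT, a change of 3.47 ± 0.84 (SE, log2; edgeR adjusted p = 0.018). That of 3xHMG-box2, which lies on the strand of TBL24, held 903 and 160 counts in fip37L, 219 and 372 for cpsf30-3, 25 and 24 for cpsf30-1, and 31 and 30 for WT, with a wide spread between the fip37L libraries (4.06 ± 0.66, SE, log2; edgeR adjusted p = 0.0034).

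Some loci have further transcript models with another 3′ end, 16 models at 9 loci, whose windows overlap the first to a large extent and are not independent of it. By the same rule 14 of the 16 were low in fip37L. The exceptions were CUTA, where the second model fell below the count minimum, and the third model of AT4G32330, which shares 436 bases with the first and held 386 and 263 counts in fip37L, 410 and 330 for cpsf30-3, 473 and 461 for cpsf30-1, and 449 and 453 for WT.

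Among 4 genes of the stomatal lineage, SPCH, which starts that lineage, was the only one with enough reads to be tested. Its window (chromosome 5, 21585719 to 21586218, minus strand) held 12 and 9 counts in fip37L, 28 and 23 for cpsf30-3, 18 and 21 for cpsf30-1, and 47 and 42 for WT. The 4 lines did not overlap in CPM, with 1.43 and 1.48 in fip37L, 3.81 and 3.76 for cpsf30-3, 3.07 and 3.03 for cpsf30-1, and 6.46 and 6.26 for WT. Its change in cpsf30-1 against WT was -1.05 ± 0.23 (SE, log2; edgeR adjusted p = 0.011). The windows of the other 3 lineage genes, FMA, MUTE and EPF2, held at most 7 counts in any library. TMM, a receptor of stomatal patterning named here after its values were seen, has 493 of its exon bases in the window behind SUS2, a splicing factor. The SUS2 window held 59 and 32 counts in fip37L, 179 and 128 for cpsf30-3, 134 and 175 for cpsf30-1, and 230 and 189 for WT. The window behind TMM itself went the other way, with 516 and 431 counts in fip37L, against 368 and 382 in WT. That change was 0.40 ± 0.11 (SE, log2, edgeR adjusted p = 0.030), below the 2-fold threshold.

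Of 7 root hair and epidermis genes 4 were tested in fip37L against WT, and 1 was called, EXPA7, an expansin of root hair walls, which is a fip37L-low window by the rule. Its window (chromosome 1, 4277970 to 4278469, plus strand) held 5 and 7 counts in fip37L, 36 and 34 for cpsf30-3, 36 and 32 for cpsf30-1, and 40 and 27 for WT. The other 3 were RHS19, LRX1 and GL2, with changes of -0.88 ± 0.55, -0.35 ± 0.18 and 0.14 ± 0.10 (SE, log2), none called by edgeR. Apart from this list and that of the stomatal lineage, no marker list held a fip37L-low window. Of 4 root transport genes 1 was tested, IRT1, and it was called higher in fip37L against WT. Its window held 541 and 1085 counts in fip37L and 407 and 323 in WT (1.31 ± 0.41, SE, log2, edgeR adjusted p = 0.049). The windows of 10 photosynthesis genes summed to 193393 and 160083 counts in fip37L, 125216 and 112179 for cpsf30-3, 92310 and 114915 for cpsf30-1, and 128403 and 124707 for WT, with 1 of 9 tested called higher in fip37L by edgeR and a median change of 0.06 (log2). The higher sum rests on RBCS2B, a small subunit of Rubisco, with 101780 and 93841 counts in fip37L and 38866 and 31703 in WT; CAB2, a chlorophyll-binding protein of the light-harvesting antenna, had 91005 and 65843 in fip37L and 89094 and 92661 in WT. The part of tissue make-up in the low windows was not tested.

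By words in the product names or descriptions of the annotation, 4 of the 68 windows, 5.88%, lie behind ribosomal protein genes, against 1.61% of the 9431 windows that passed the minimum. They are PRPL35, a plastid ribosomal protein, the further ribosomal protein genes emb2184 and AT2G21290, and RPL18 of the cytosolic ribosome. The window of emb2184 held 2 and 3 counts in fip37L, 22 and 14 for cpsf30-3, 19 and 17 for cpsf30-1, and 17 and 16 for WT. DESeq2 did not call it in fip37L against WT (adjusted p = 0.057). PRPL35 held 6 and 5 counts in fip37L and was not called against WT, and AT2G21290 held 6 and 1. At a ratio of at most 0.25 only 1 ribosomal protein window remained, so low counts limit this share. RPL18 held 27 and 16 counts in fip37L, 69 and 60 for cpsf30-3, 42 and 58 for cpsf30-1, and 71 and 74 for WT. Words for seed storage or late embryogenesis proteins matched 3 loci, 4.41% against 0.657%, 2 of which are the lipid transfer family genes of chromosome 4 and the third the hydroxyproline-rich AT4G13270. The bHLH transcription factors were SPCH and AT5G51790, 2.94% against 0.403%. Protein kinase, F-box, histone and auxin matched 2 loci each, or 2.94%: protein kinase (AT1G49730, AT1G66930) against 3.12% of the windows that passed the minimum, F-box (AT3G22770, AT5G63520) against 1.65%, histone (AT1G77540, AT3G07565) against 0.891% and auxin (YUC7, MES17) against 1.18%. Kinases were thus no more frequent than among all these windows, and counts of 2 carry little weight in any family. Both auxin genes act on the hormone's level, YUC7 in its synthesis and MES17 in the release of the free acid from its methyl ester. YUC7 held 48.3 and 48.7 CPM in fip37L, 106 and 109 for cpsf30-3, 130.5 and 129.6 for cpsf30-1, and 103 and 102 for WT, the smallest fold of the set at 2.11.

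Among the 10 windows with the highest WT level were also those of AT5G47490, an RGPR-like protein, and AT1G76780, an HSP20-like chaperone. AT5G47490 held 10.8 and 10.7 CPM in fip37L, 66.1 and 65.4 for cpsf30-3, 50.7 and 51.0 for cpsf30-1, and 92.1 and 80.1 for WT, and its window takes in 357 exon bases of the pectin methylesterase gene PME5. The replicates agreed closely in this window, and the cpsf30 lines again lay between fip37L and WT. Over all 68 windows, both cpsf30 means lay below the WT mean in 34 and above it in 17. The same counts over the 9431 windows were not made, so these have no matching background. The median ratio to WT over the 68 was 0.901 in cpsf30-3 and 0.942 in cpsf30-1. In the 9431 windows that passed the minimum these medians were 0.953 and 0.935. AT1G77540, an acyltransferase whose window lies in exons of the methyltransferase gene AT1G77530, held 4 and 5 counts in fip37L, 27 and 41 for cpsf30-3, 38 and 56 for cpsf30-1, and 85 and 59 for WT. AT3G01250, uncharacterized, held 11 and 2 counts in fip37L, 50 and 101 for cpsf30-3, 45 and 48 for cpsf30-1, and 82 and 63 for WT, with wide spread in both fip37L and cpsf30-3.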

How the data were processed

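The 68 windows, the gene lists and the comparisons were chosen with earlier results of these data known. Read counts were deposited by the authors, 1 file per library, as raw counts per transcript model in the 500-bp window after its 3′ end, with no normalization. The authors removed organelle and ribosomal RNA reads with Bowtie2 2.3.4, mapped with TopHat2 2.0.7 to TAIR10 and counted with BEDTools, per the labels and the study's methods; the libraries were stranded, and the methods state no strand setting for the counting in these lines. Column totals were 5862499 to 8411827 counts, so 3 counts, the least taken as detected, are 0.357 to 0.512 CPM; this limit and the intervals cover counting error only, since PCR copies are not marked.

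The lowest-numbered model stood for each locus. Counts were tested with the two-sided quasi-likelihood test of edgeR 4.0.16 in R 4.3.3 (TMM, filterByExpr by line, 8 libraries in 1 fit of 4 groups, 4 residual degrees of freedom), with Benjamini-Hochberg adjustment over 12583 windows. The script was tested on simulated data. Windows were placed on TAIR10.1 by the reference annotation, which gave 38527 of 39087 models by model and 72 by gene; the annotation behind the deposited counts may differ, and positions with it. Product names and symbols are those of RefSeq. Named windows are FIP37 and CPSF30, the 20 with the lowest fip37L to WT ratio, the 10 with the highest WT level, 5 on either side of the threshold, those called among the other lines, neighbouring members, members of a family with at least 2 members, and marker genes; other names were added after the values were seen. DESeq2 1.42.0, other scalings, filters and thresholds, a replicate block and leaving out libraries were alternatives. Python 3.11.15 was used for the rest. Of the lists searched, those for trichome, root cap and meristem, root endodermis and vascular, root transport, and seed and embryo held 0 members.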

Additional observations from a re-analysis of the deposited data

Results flagged for a closer look

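The change against WT differed between cpsf30-1 and cpsf30-3 in 3 of the windows, by the direct test of cpsf30-1 against cpsf30-3. AT5G05300 was higher in cpsf30-1 by 1.47 (log2), with 66 and 69 counts in cpsf30-1 and 34 and 16 in cpsf30-3. AT4G11320 was higher by 1.33, with 108 and 119 counts in cpsf30-1 and 63 and 30 in cpsf30-3. AT3G57600 was higher by 1.29, with 39 and 35 counts in cpsf30-1 and 19 and 12 in cpsf30-3. By DESeq2 only AT4G11320 passed, and without cpsf30-3 replicate 2, or without either cpsf30-1 library, none of the 3 did. With 2 libraries per line no single library could be tested as standing apart from its group.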

How the results depend on the processing

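Of the 68 windows, 55 met the rule with TMM-scaled sizes, 68 with totals over one window per locus, 49 at a minimum of 20 counts and 10 at a ratio of at most 0.25. With no minimum 241 windows met it, at a ratio of at most 0.67 277, and over all transcript models 72 loci. Leaving out a library gave 75 to 197 windows; without fip37L replicate 1 it was 197 and without fip37L replicate 2 138, since the rule then asks less. Members called lower in cpsf30-3 against WT were 2; a replicate block gave 1, the adjusted p alone 4, and leaving out any library 0. In cpsf30-1 against WT the 7 called lower became 4 with a mean of at least 20 counts and 4 to 5 with a library left out, and the 4 called higher became 2 by DESeq2, 9 with the adjusted p alone and 1 to 3 with a library left out. In cpsf30-1 against cpsf30-3 the 3 called higher became 1 by DESeq2, 5 with no filter on low counts and 0 to 2 with a library left out, and the 0 called lower became 3 with the adjusted p alone and 0 to 1 with a library left out. The cause of these moves was not tested, and shares of all windows tested were counted only for the main edgeR calls. Leaving out a library leaves 1 in its line, assumed to vary like the others. Of the windows free of other genes 10 became 4 at 20 counts, and the 8 families with at least 2 members became 0 at a ratio of 0.25. Same-numbered libraries did not deviate together (correlations of -0.09 to 0.04 over 12583 windows), and the labels state no pairing; apart from AT4G22513 in cpsf30-3 against WT the replicate block changed no call of a window named in those comparisons. Counts under 10 in fip37L limit the fold of 32 windows.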
